A study of Mus musculus with 8 samples.

Results

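The interferon-inducible p200 genes are a family that lies side by side on mouse chromosome 1. The genes described here are Ifi203, Ifi204, Ifi205, Mnda and Aim2, which are 5 of the 20207 genes with values in the files. They were found by symbol, as genes of this cluster that encode a HIN domain, and they were selected because RPKM values of these same libraries had already shown some of them to be low in CML stem cells. Their levels in CML against normal cells are therefore given as a description without a test. Differences between cell populations, which were not the basis of the selection, were tested with disease as a covariate. The CML stem values behind the selection enter these tests too, so that the tests are not independent of the selection.

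Proteins of this family, also called HIN-200 or PYHIN proteins, carry a HIN domain that binds DNA, and most carry a pyrin domain through which they contact other proteins. Aim2 senses double-stranded DNA in the cytosol and recruits the adaptor Pycard (ASC), which activates caspase-1. The other proteins are found largely in the nucleus, and the family takes its name from its induction by interferons in haematopoietic cells.

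The data are 8 RNA-sequencing libraries of cells sorted from mouse bone marrow. Of these, 4 came from normal and 4 from CML-affected mice. Each set of 4 held 2 libraries of long-term (LT) stem cells, sorted as CD150+CD48-CD135-KLS+ cells, 1 of short-term (ST) cells that differ by being CD150-, and 1 of KLS- progenitors. KLS denotes c-Kit+, lineage-negative and Sca-1+ cells, and KLS- progenitors lack Sca-1. According to the study's methods, the CML-affected mice carried both the Tal1-tTA and the TRE-BCR-ABL1 transgene on the FVB/N background, in which the Tal1-driven transactivator expresses BCR-ABL1 in stem and progenitor cells after doxycycline withdrawal, and the controls were healthy Tal1-tTA littermates. The labels instead give the strain as C57BL/6 for all 8 libraries and an age of 2 months for the normal LT 1, ST and KLS- libraries and 6 months for normal LT 2. They give no age for the CML libraries. For sorted cells the study's methods give the same age range, in weeks, for CML-affected and control mice, and the 6 months of normal LT 2 lie outside it. Any difference of strain or age between normal and CML mice cannot be told apart from the difference in disease. By the ages in the labels, normal LT 2 came from other animals than normal LT 1, ST and KLS-. Beyond this the labels do not say which libraries came from separate animals, so that the spread between libraries may in part be technical.

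The depth of the libraries was estimated at 17.8 to 23.8 M reads. The 6 genes listed as stem cell markers summed to 256 to 405 RPKM in the stem libraries and to 17.2 and 20.9 RPKM in the KLS- libraries. The 6 granulocyte markers summed to 3958 RPKM in normal LT 2 and to between 12.9 and 1029 RPKM in the other libraries. The Y-linked gene Ddx3y was at 31.0 RPKM in normal LT 2 and 17.5 RPKM in CML LT 2 and at no more than 0.0625 RPKM in the others. Xist, which is expressed in female cells, was at 0.154 RPKM in normal LT 2, 13.5 RPKM in CML LT 2 and 12.4 to 30.8 RPKM in the others. CML LT 2 thus held both transcripts. In normal LT 2, 4 of the 5 p200 genes lay between the values of the other normal stem libraries, and Aim2, at 6.50 RPKM, was close to the 6.44 RPKM of normal ST. The part of sex, age and granulocyte RNA in the values was not tested. KLS- progenitor markers (5 of 6 in the files) summed to 79.9 to 142 RPKM in the normal stem libraries and to 58.3, 1474 and 936 RPKM in CML LT 1, LT 2 and ST, against 8715 and 14017 RPKM in the KLS- libraries. Most of the sums in CML LT 2 and ST was Mpo, at 1291 and 830 RPKM, followed by Ctsg, at 123 and 56.8 RPKM. Gata1, Klf1 and Cd48 were at no more than 45.15 RPKM in any CML stem library and 41.79 RPKM in any normal stem library. The part of progenitor RNA in the values was not tested.

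By the GENCODE M1 annotation of the mm9 genome, the 5 genes and 3 further p200 genes of the files share a stretch of chromosome 1. Aim2 lies at chr1:175281010-175396171 on the plus strand, with 12 exons in its longest coding transcript. It is followed by BC094916 at chr1:175449848-175466088 on the minus strand and by Pyhin1 at chr1:175560990-175578059 on the plus strand. The remaining genes are all on the minus strand. Ifi204 lies at chr1:175677424-175697050 (10 exons), Mnda at chr1:175826486-175843053 (7 exons), Ifi203 at chr1:175850538-175872803 (8 exons), Ifi202b at chr1:175892700-175912975 (7 exons) and Ifi205 at chr1:175942129-175961886 (7 exons).

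The genes arose as near copies of each other, and their transcripts share sequence. Of all windows of 100 bases along the longest coding transcript, 41.5% of those of Ifi205 also occur in Mnda and 40.5% of those of Mnda occur in Ifi205. Mnda shares a further 21.3% of its windows with Ifi204, and 61.8% of its windows occur in at least 1 other gene. For Ifi204 this share was 16.4%. No such window of Ifi203 or Aim2 occurs in another gene. How reads with several matches were assigned is not given in the sources used here, so that the values of Mnda, Ifi205 and, in part, Ifi204 are uncertain. The annotated extents of Mnda and Ifi203 overlap that of Mndal, a family member with no row of that name in the files, and the extent of Aim2 overlaps Cadm3, which was at no more than 0.0697 RPKM in any library.

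Promoter sequences were compared for what these genes have in common at their starts. The RefSeq promoter table (GRCm38.p6, coordinates of that build) holds entries for Ifi203, Ifi205, Mnda (under the symbol Ifi211) and Aim2, and each sequence runs from 250 bases before to 50 bases after the start of the gene. Both strands were searched for the core of the interferon-stimulated response element, GAAANNGAA, and matches are printed in capitals. Of 32851 promoters in the table, 8.56% hold such a match. The second of the 2 Ifi203 entries is shown, since the first holds no match. No entry was found for Ifi204.
Ifi203, chr1:173942443-173942742, minus strand: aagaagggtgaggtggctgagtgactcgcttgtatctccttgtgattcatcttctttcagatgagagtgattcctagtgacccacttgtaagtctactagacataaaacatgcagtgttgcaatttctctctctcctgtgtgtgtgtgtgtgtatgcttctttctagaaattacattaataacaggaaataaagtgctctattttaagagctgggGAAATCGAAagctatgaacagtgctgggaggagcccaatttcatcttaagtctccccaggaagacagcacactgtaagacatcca
Ifi205, chr1:174031706-174032005, minus strand: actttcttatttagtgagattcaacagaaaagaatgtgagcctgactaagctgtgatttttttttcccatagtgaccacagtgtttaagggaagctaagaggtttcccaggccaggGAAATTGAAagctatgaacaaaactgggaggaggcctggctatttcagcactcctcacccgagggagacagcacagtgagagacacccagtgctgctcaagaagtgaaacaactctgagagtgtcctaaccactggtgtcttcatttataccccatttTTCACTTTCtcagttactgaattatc
Mnda, chr1:173912997-173913296, minus strand: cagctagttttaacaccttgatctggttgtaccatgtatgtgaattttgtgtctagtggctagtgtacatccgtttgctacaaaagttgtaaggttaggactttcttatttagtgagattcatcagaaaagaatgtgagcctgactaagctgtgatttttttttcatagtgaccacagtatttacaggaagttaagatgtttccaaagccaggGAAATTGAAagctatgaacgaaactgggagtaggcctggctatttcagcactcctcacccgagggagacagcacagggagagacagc
Aim2, chr1:173420354-173420653, plus strand: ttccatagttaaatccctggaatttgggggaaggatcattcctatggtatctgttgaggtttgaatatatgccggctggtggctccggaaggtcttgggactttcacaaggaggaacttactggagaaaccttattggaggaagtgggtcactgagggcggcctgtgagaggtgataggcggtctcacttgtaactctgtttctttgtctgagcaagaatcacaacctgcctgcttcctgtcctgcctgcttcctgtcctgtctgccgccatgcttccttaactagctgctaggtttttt

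With the first base of the transcript counted as 0, the match begins at position -35 in Ifi203, at -37 in Mnda and at -134 in Ifi205, in each case on the strand of the gene. Ifi205 holds another match at position 24 on the opposite strand. The bases that follow the match are shared as well. Ifi203 and Ifi205 have the run gaaagctatgaaca in common (14 bases), and the longest run common to Ifi205 and Mnda, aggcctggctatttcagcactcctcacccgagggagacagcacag, spans 45 bases. The Aim2 promoter holds no match and shares no run longer than 9 bases with the others. The first Ifi203 entry, which holds no match either, shares at most 8 bases with Ifi205 and 9 bases with Mnda. The likeness of Ifi203 to these genes thus holds for its second entry only. The letters TTCNNNGAA (the core of a gamma-activated site, present in 8.30% of promoters) and AGAGGAAGT (a purine-rich box, in 1.005%) were found in none of these windows. A match describes the letters only, and binding at these sequences was not measured here.

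In CML stem cells, 4 of the 5 genes lay below normal haematopoietic stem cells (HSCs) in each library, and Aim2 did not. Of the 12561 genes whose RPKM summed to more than 1, 11.4% had each of the 3 CML stem libraries below each of the 3 normal HSC libraries and 6.92% had them above. These shares give the background for the counts of p200 genes, from which nothing further can be read because the members were chosen on this contrast. The median difference in mean log2(RPKM + 1), CML minus normal, was -1.66 over the 5 genes and -0.04 over all genes.

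**Figure D1:**
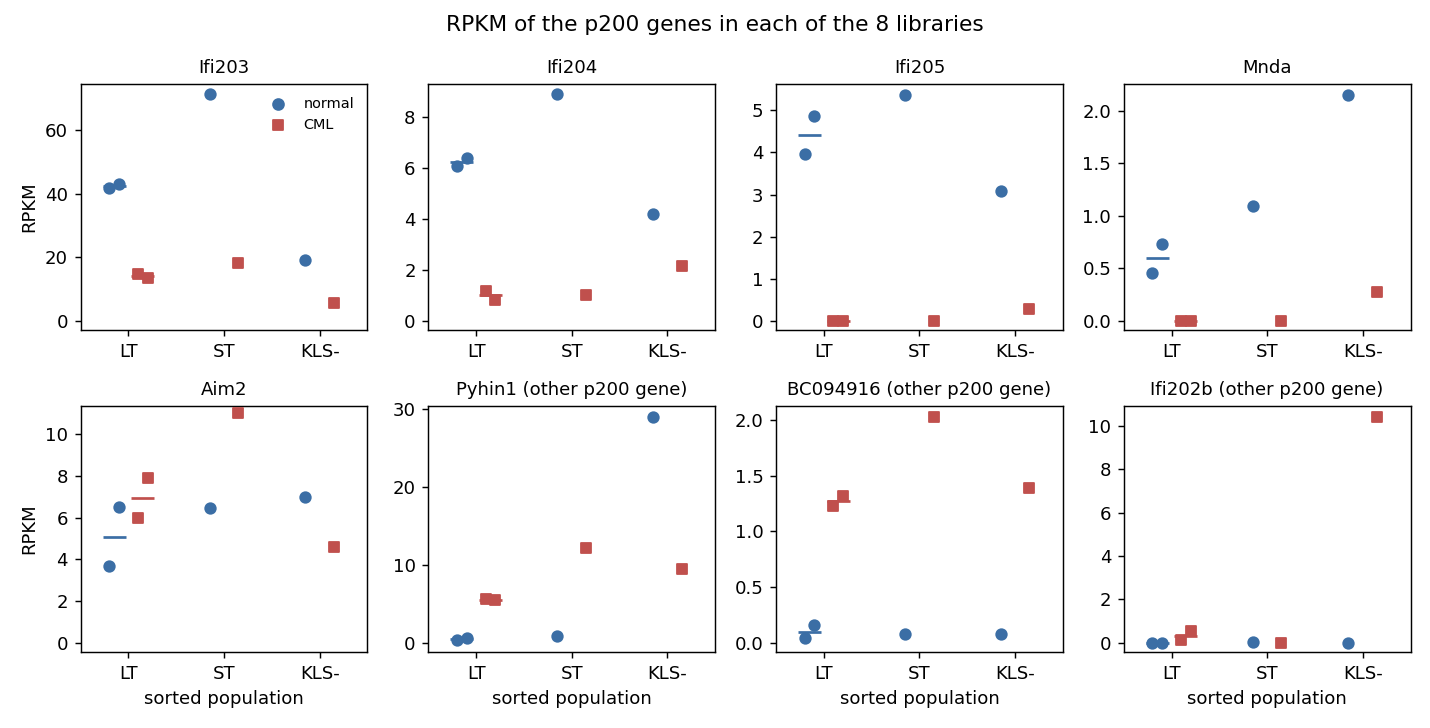
RPKM of the 5 p200 genes and of the 3 other p200 genes of the files (y axis, linear scale, its own range for each gene) in the LT, ST and KLS- populations (x axis). Circles are normal and squares CML libraries, 1 symbol for each of the 8 libraries, and a short line marks the mean of the 2 LT libraries. Ifi203, Ifi204, Ifi205 and Mnda lie lower in the CML libraries of each population, Aim2 overlaps between disease states in the stem populations, and Pyhin1 is higher in CML stem cells but lower in CML KLS- cells.

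Ifi203 had the highest level of the 5 genes in each library. In normal mice it was at 41.8 and 43.0 RPKM in the 2 LT libraries, 71.3 RPKM in the ST library and 19.1 RPKM in the KLS- library. In CML-affected mice it was at 14.7 and 13.4 RPKM in LT, 18.1 RPKM in ST and 5.72 RPKM in KLS- cells. The CML library was the lower one in each population, and ST was above LT and LT above KLS- in both disease states. The mean in normal HSCs was 52.0 ± 16.7 RPKM (SD, n = 3), or 3.38 times the CML stem cell mean of 15.4 ± 2.41 RPKM (SD, n = 3). On the log2(RPKM + 1) scale the difference was -1.66 (SE 0.23), and it was between -1.79 and -1.41 when each library was left out in turn. In sorted bulk cells, fewer cells that express a gene and less RNA per cell cannot be told apart.

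Ifi204 encodes p204, a nuclear HIN protein studied in macrophage and myeloid differentiation. Normal LT cells had 6.07 and 6.38 RPKM, normal ST cells 8.90 RPKM and normal KLS- cells 4.17 RPKM. CML LT cells had 1.18 and 0.814 RPKM, CML ST cells 1.005 RPKM and CML KLS- cells 2.15 RPKM. The CML stem libraries rest on about 35 to 57 reads each. Among normal libraries the KLS- value was the lowest, whereas among CML libraries it was the highest. Normal HSCs had a mean of 7.12 ± 1.55 RPKM (SD, n = 3) and CML stem cells one of 0.999 ± 0.183 RPKM (SD, n = 3), a ratio of 7.12 and a difference of -2.01 (SE 0.18) on the log2(RPKM + 1) scale.

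Ifi205 had a value in each normal library and in none of the CML stem libraries. It was at 3.97 and 4.87 RPKM in normal LT, 5.37 RPKM in normal ST and 3.09 RPKM in normal KLS- cells, from about 101 to 187 reads. It was listed at 0 in both CML LT libraries and in the CML ST library, and at 0.278 RPKM, or about 8 reads, in CML KLS- cells. At the depth of these libraries 3 reads of Ifi205 would give 0.0900 to 0.102 RPKM. The lowest value of Actb, Gapdh, Rpl4, Eef1a1 and Tbp in any library was 17.8 RPKM. These genes lie above Ifi205 and do not show how often a gene at its level is listed at 0. Of 20207 genes, 58 were listed at 0 in the 3 CML stem libraries and above 0 in the 3 normal HSC libraries, and of these only Ifi205 reached 1 RPKM in each normal HSC library.

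Mnda, listed by RefSeq as Ifi211 and named like the human myeloid nuclear differentiation antigen, was the lowest of the 5 genes in normal cells. Its values were 0.455 and 0.735 RPKM in normal LT, 1.09 RPKM in normal ST and 2.15 RPKM in normal KLS- cells, from about 15, 29, 34 and 72 reads. It too was listed at 0 in the 3 CML stem libraries and reached 0.272 RPKM, about 8 reads, in CML KLS- cells. At these depths 3 reads of Mnda would give 0.0762 to 0.102 RPKM over the 8 libraries. Since Mnda and Ifi205 share windows of sequence, their values are not independent.

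Aim2 stood apart from the other 4 genes. It was at 3.68 and 6.50 RPKM in normal LT, 6.44 RPKM in normal ST and 7.005 RPKM in normal KLS- cells. In CML it was at 6.00 and 7.90 RPKM in LT, 11 RPKM in ST and 4.60 RPKM in KLS- cells. The CML and normal stem libraries overlapped, with means of 8.30 ± 2.53 RPKM (SD, n = 3) and 5.54 ± 1.61 RPKM (SD, n = 3). The difference on the log2(RPKM + 1) scale was 0.51 (SE 0.26). It was 0.28 without normal LT 1 and 0.30 without CML ST, reached 0.69 without CML LT 1, and was 0.25 in the fit over all 8 libraries. The KLS- values lay in the other order, with CML below normal.

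The LT libraries alone, 2 in each disease state, gave similar sizes. The difference between CML and normal LT cells in log2(RPKM + 1) was -1.53 (SE 0.18) for Ifi203, -1.86 (SE 0.20) for Ifi204, -2.43 (SE 0.17) for Ifi205, -0.67 (SE 0.15) for Mnda and 0.41 (SE 0.27) for Aim2. With a pseudocount of 0.1 RPKM in place of 1 RPKM, Ifi205 was at -5.49 and Mnda at -2.77. The Aim2 difference was 0.07 without normal LT 1, 0.76 without normal LT 2 and 0.24 without CML LT 2. These libraries are also part of the pooled comparison. For KLS- progenitors, with 1 library for each disease state and no replicate, the normal value was 3.34 times the CML value for Ifi203, 1.94 times for Ifi204, 11.1 times for Ifi205, 7.92 times for Mnda and 1.52 times for Aim2.

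The other p200 genes of the files did not share the pattern of the 4 low genes. Pyhin1 was at 0.416 and 0.634 RPKM in normal LT, 0.837 RPKM in normal ST and 29.0 RPKM in normal KLS- cells, against 5.56 and 5.46 RPKM in CML LT, 12.1 RPKM in CML ST and 9.40 RPKM in CML KLS- cells. BC094916 was at 0.0387 to 0.162 RPKM in the 4 normal libraries and at 1.23 to 2.03 RPKM in the 4 CML libraries. Ifi202b was listed at 0 in 3 of the 4 normal libraries and was at 10.4 RPKM in CML KLS- cells, but at no more than 0.521 RPKM in any CML stem library. Both Pyhin1 and BC094916 thus lay higher in each CML stem library than in each normal HSC library, with differences of 2.34 (SE 0.29) and 1.19 (SE 0.14) on the log2(RPKM + 1) scale. Of windows of 100 bases, 17.6% of those of Pyhin1 occur in BC094916 and 19.3% of those of BC094916 in Pyhin1, so that reads could pass between them.

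**Figure D2:**
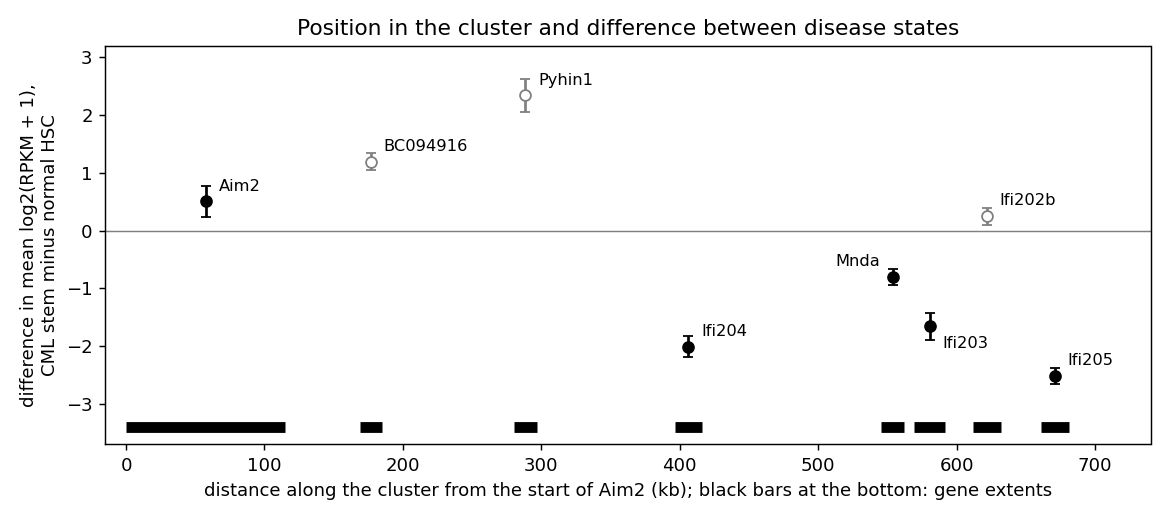
Difference in mean log2(RPKM + 1), CML stem minus normal HSC, 3 libraries each (y axis, error bars are the standard error from limma) against the distance along the cluster from the start of Aim2 in kb (x axis). Filled points are the 5 p200 genes described and open points the 3 other p200 genes of the files, and black bars show the extent of each gene. Aim2, BC094916 and Pyhin1 at one end lie above 0, and the 4 low genes lie in the other part of the cluster together with Ifi202b. The sizes hold for a pseudocount of 1 RPKM, and with 0.1 RPKM Mnda was at -3.04 and Ifi205 at -5.59.

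Along the chromosome, Aim2, BC094916 and Pyhin1 came first, with differences of 0.51, 1.19 and 2.34, and Ifi204, Mnda, Ifi203 and Ifi205 came later with -2.01, -0.80, -1.66 and -2.51. The sizes and their order depend on the pseudocount, since Ifi205 and Mnda are listed at 0 in the CML stem libraries. With 0.1 RPKM these 4 differences were -2.71, -3.04, -1.72 and -5.59, and the signs were as before. Ifi202b, between Ifi203 and Ifi205, had a difference of 0.25 (SE 0.15). Of 23 further protein-coding genes of the files within 500 kb, 5 passed the filter on low values, and of these 2 were higher and 0 lower in CML stem cells without overlap, beside 6.92% and 11.4% of all genes. The 2 genes, named after their values were seen, were Fcer1a, which encodes a chain of the high-affinity IgE receptor, at 2.25 to 4.55 RPKM in CML stem and 0.311 to 1.68 RPKM in normal HSC libraries, and Spna1, which encodes erythroid alpha-spectrin, at 0.622 to 2.65 against 0.248 to 0.493 RPKM.

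The makeup of the summed RPKM of the 8 p200 genes in the files differed between the libraries. Only 3 of 20 further p200 genes listed are in the files, so that the sum does not cover the family. RPKM is a value per length, so that levels of different genes can be added. The 8 genes summed to 56.5, 62.3 and 94.1 RPKM in the normal stem libraries and to 28.8, 29.4 and 44.2 RPKM in the CML stem libraries. Ifi203 made up 69.0 to 75.8% of the sum in normal stem cells and 40.9 to 51.1% in CML stem cells. Aim2 made up 6.51 to 10.4% in normal and 20.8 to 26.9% in CML stem cells. The sum holds genes selected for low values in CML stem cells, so that the other shares rise there in part by selection. The RPKM of Aim2 itself overlapped between the disease states. In normal KLS- cells Pyhin1 was the largest part with 44.9%, and in CML KLS- cells Ifi202b was, with 30.4%.

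**Figure D3:**
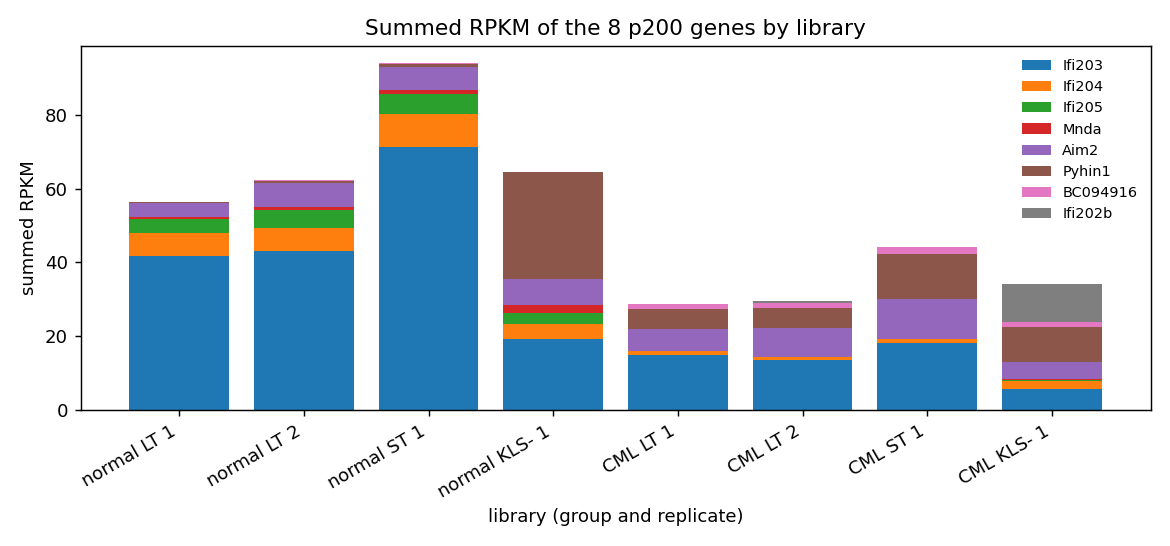
Summed RPKM of the 8 p200 genes (y axis, bars start at 0) in each of the 8 libraries (x axis), with 1 colour for each gene. Ifi203 is the largest part of each stem library, and the sums of the normal stem libraries, 56.5 to 94.1 RPKM, lie above those of the CML stem libraries, 28.8 to 44.2 RPKM.

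Whether the genes differ between stem cells and their progeny was tested with limma over the 8 libraries, as the mean of LT and ST minus KLS- with disease as a covariate. The stem side includes the CML stem libraries, in which some members were known to be low. Ifi203 was higher in stem cells by 1.41 on the log2(RPKM + 1) scale (SE 0.13, adjusted p = 9.06e-05 from limma). Mnda was lower in stem cells, with a difference of -0.57 (SE 0.15, adjusted p = 0.0136 from limma). Without the normal KLS- library the Mnda difference was -0.31 and no longer passed the threshold (adjusted p = 0.217 from limma). Thus 1 of 5 genes was higher and 1 was lower, where 26.5% of all genes tested were higher and 22.2% lower. The median difference was 0.08 over the 5 genes and 0.08 over all genes.

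For the other 3 genes no difference was detected. The differences were 0.03 (SE 0.27, adjusted p = 0.944 from limma) for Ifi204, 0.08 (SE 0.19, adjusted p = 0.732) for Ifi205 and 0.26 (SE 0.26, adjusted p = 0.428) for Aim2. In these 3 genes the normal and the CML libraries lay in opposite orders, which a single difference over both disease states averages. Ifi204 and Ifi205 were higher in each normal stem library than in normal KLS- cells and lower in each CML stem library than in CML KLS- cells. Aim2 showed the reverse, with its stem libraries below KLS- cells in normal and above them in CML mice. The difference between disease states in these orders was not tested, since each rests on 1 KLS- library per state. The CML stem values in these orders were known at selection.

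**Figure D4:**
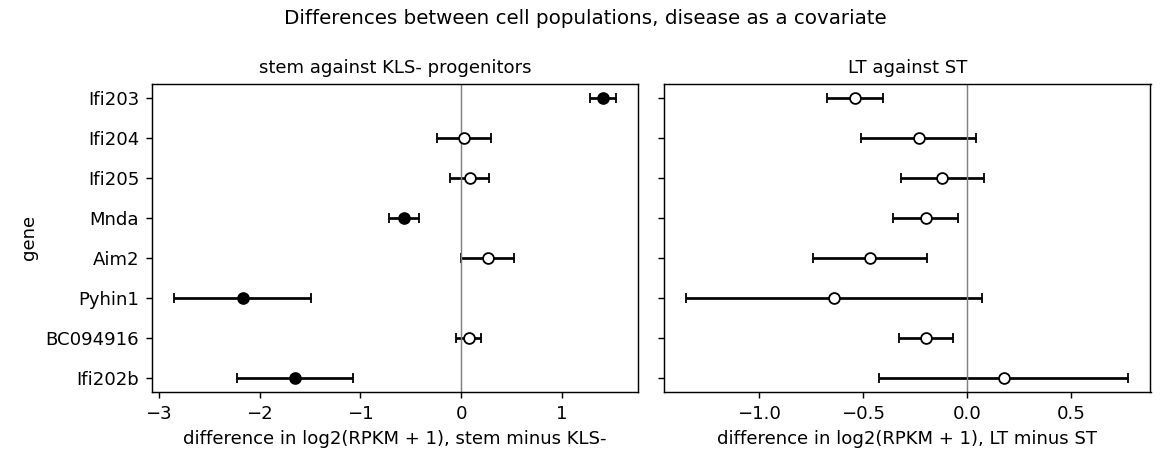
Differences in log2(RPKM + 1) with their standard errors (x axes) for the 8 p200 genes (y axis), stem minus KLS- on the left and LT minus ST on the right, from the fit over 8 libraries with disease as a covariate. Filled points have an adjusted p under 0.05 from limma. Ifi203 lies at 1.41 and Mnda at -0.57 on the left, and no gene has a filled point on the right.

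Between LT and ST cells none of the 5 genes passed the threshold, where 2.74% of all genes tested were higher and 2.13% lower in LT. Ifi203 came nearest, with a difference of -0.54 (SE 0.14, adjusted p = 0.0607 from limma) and with each LT library below the ST library of the same disease state. After quantile normalization its difference was -0.56 and passed the threshold (adjusted p = 0.0411 from limma). Of 14 alternatives this was the only 1 to pass, and the difference was -0.73 to -0.35 when each library was left out in turn. The differences of the other genes lay between -0.47 for Aim2 (SE 0.27) and -0.12 for Ifi205 (SE 0.20).

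Of the other p200 genes, Pyhin1 (-2.17, SE 0.68, adjusted p = 0.0276 from limma) and Ifi202b (-1.65, SE 0.58, adjusted p = 0.0409) were lower in stem cells than in KLS- cells. Neither order held in each disease state. Pyhin1 was at 12.1 RPKM in CML ST and 9.40 RPKM in CML KLS- cells, and Ifi202b was listed at 0 in normal KLS- cells. Both calls depended on single libraries. Without the normal KLS- library the adjusted p of Pyhin1 was 0.529, and without the CML KLS- library that of Ifi202b was 0.964. Leaving out normal ST also ended the call of Pyhin1, and leaving out any 1 of the 3 CML stem libraries that of Ifi202b.

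Genes of DNA sensing, inflammasomes and related pathways were taken as a list of 27, of which 25 were tested. The list was not limited to partners of the p200 proteins. Between stem and KLS- cells 6 of the 25 were higher and 10 lower, against 26.5% higher and 22.2% lower over all genes tested. Of these 16 calls, 7 held when each library was left out in turn. They were the higher levels in stem cells of Il18, a cytokine matured by caspase-1 (2.80), of Zbp1, a sensor of Z-form nucleic acids (1.22), and of Casp4, an inflammatory caspase (1.08), and the lower levels of Mefv, which encodes pyrin (-2.23), of Nlrc4, an inflammasome receptor (-1.20), of Rnaseh2b, a subunit of RNase H2 (-1.01), and of Dnase2a, a lysosomal DNase (-0.87), each as a difference in log2(RPKM + 1). The direct partners of Aim2 were among the calls that depended on a library. Pycard (-0.54) lost its call without either KLS- library, and Casp1 (-0.50) lost it without normal KLS- or without CML ST. Nlrp3, Tmem173, E330016A19Rik and Ddx41 (lower) and Tbk1, Xrcc5 and Samhd1 (higher) also lost their calls without at least 1 library. Between LT and ST cells 1 of the 25 genes passed the threshold. Tmem173, which encodes the adaptor STING, was lower in LT by 1.34 on the log2(RPKM + 1) scale.

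Between CML stem and normal HSC libraries, 3 of the 25 genes were lower and 1 was higher without overlap, close to the 11.4% and 6.92% of all genes, with a median difference of -0.09. The higher one was Nlrp1b, an inflammasome receptor, at 1.54 to 3.52 RPKM in the CML stem and 0.0482 to 0.425 RPKM in the normal HSC libraries. Zbp1 was lower, with 3.35 ± 1.78 against 7.68 ± 1.39 RPKM (SD, n = 3 each). The partners of Aim2 were present in each library, Pycard at 19.1 to 37.8 RPKM and Casp1 at 16.1 to 32.7 RPKM, with overlap between the disease states.

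Receptors and factors of interferon signalling were taken as a list of 22, of which 20 were tested. Between stem and KLS- cells 9 of the 20 were higher and 3 lower, where the shares over all genes were 26.5% and 22.2%. Of these 12 calls, 8 held when each library was left out. Among the latter, Socs3 (2.10), Irf2 (1.59), Irf1 (1.52), Jak1 (1.18), Stat3 (1.02) and Irf9 (0.95) were higher in stem cells and Irf8 (-3.71) and Ifngr1 (-1.65) were lower, each as a difference in log2(RPKM + 1). Calls lost without at least 1 library included those of Jak2 and Irf7 (higher) and of Ifngr2 (lower). Between LT and ST cells Il10rb was lower in LT (-0.97), a call that was lost without normal LT 1, normal ST or CML ST. Between CML stem and normal HSC libraries, 4 of the 20 were lower and 1 higher without overlap, beside 11.4% and 6.92% of all genes, with a median difference of -0.05. Of these, Usp18, a protease that removes the interferon-induced modifier Isg15, differed by over 2-fold, with 4.28 to 7.83 RPKM in the CML stem and 8.16 to 30.1 RPKM in the normal HSC libraries.

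The genes most alike in pattern to each p200 gene were taken from the 10033 genes with a mean of at least 1 RPKM, by Pearson correlation of log2(RPKM + 1) over the 8 libraries. This is a description, since the libraries share disease state and population. Ifi205 was most like Trim12 (r = 0.994), Cmpk2 (r = 0.994) and Isoc2b (r = 0.993). Ifi204 was most like Pbx4 (r = 0.987), Isoc2b (r = 0.982) and Ifi205 (r = 0.979). Ifi203 was most like Pts (r = 0.986), Rnf144a (r = 0.985) and Cdkn1b (r = 0.980). Aim2 was most like Slco3a1 (r = 0.962), Sh3kbp1 (r = 0.913) and Acrbp (r = 0.878). Mnda was below the minimum level.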

How the data were processed

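RNA-sequencing data of 8 libraries from 6 populations sorted from mouse bone marrow were used. According to the study's methods and the labels, the authors made libraries from total RNA with the SMARTer Ultra Low Input kit, mapped paired-end reads to mm9 and deposited 1 RPKM value per gene and library. The annotation, the counting rule and the treatment of reads with several matches are not given in the sources used here. Count models were not applied, since RPKM is a normalized unit. Relative depth was estimated from ratios of low values, and 84.3% of 4294 low genes lay on whole multiples of 1 read (tolerance 0.02 reads). Estimated reads use the longest coding transcript of GENCODE M1, and intervals from them cover counting error only.

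Differences were fitted with limma (version 3.58.1, R 4.3.3, lmFit and trended eBayes) on log2(RPKM + 1), with a pseudocount of 1 RPKM, which understates changes of low genes, over 12561 genes with a total above 1 RPKM. The Benjamini-Hochberg threshold was 0.05. CML stem cells were compared with normal HSCs (3 against 3, no covariate), LT with LT (6 population means), and stem with KLS- and LT with ST (8 libraries, disease as covariate). In simulated data of 12561 genes, 200 were given a log2 change of 2, and 92.0%, 77.0%, 95.5% and 93.0% were recovered in these comparisons. Each simulated gene had the same mean in all libraries apart from this change and normal noise. Only genes with a mean log2(RPKM + 1) above 1 were changed, and Mnda lies below this level. The rates therefore do not hold for smaller changes, for low genes or for data with differences between populations.

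The members and gene lists were chosen with earlier results of these data known. The genes named were the members, the other p200 genes of the files, list genes past the threshold between populations or separated between disease states by over 2-fold in mean RPKM, and the 3 genes most correlated with each member of at least 1 RPKM on average. By this rule 1 further list gene would be named, which is not reported here. Alternatives covered the pseudocount, the filter, normalization, the eBayes trend, the covariates, the correlation and leaving out each library. Python 3.11 was used for all other steps. Fold changes and p-values of the study were not used.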

Additional observations from a re-analysis of the deposited data

Results flagged for a closer look

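The genes Pyhin1, Ifi204, Ifi205 and Aim2 had effects of opposite direction in different groups. In each case the difference between the groups was not tested, because the KLS- population has 1 library for each disease state. The log2 ratio of mean RPKM of Pyhin1 was 3.62 for CML stem cells over normal HSCs, and its log2 ratio for CML over normal KLS- cells was -1.62. Ifi204 had a mean log2(RPKM + 1) in stem cells that differed from that in KLS- cells by 0.63 in normal mice and by -0.66 in CML-affected mice. For Ifi205 these differences were 0.48 in normal and -0.35 in CML-affected mice. The latter rests on CML stem libraries listed at 0 and on about 8 reads in CML KLS- cells. Some of these reads could belong to Mnda, which shares sequence with Ifi205. For Aim2 the differences were -0.33 in normal and 0.70 in CML-affected mice.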

How the results depend on the processing

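Each comparison between disease states rests on 1 to 3 libraries per group, and each comparison between populations includes a population with 1 library per disease state. The 4 low p200 genes stayed below normal HSCs in each CML stem library after quantile normalization and after scaling by the upper quartile. No member's difference that passed a threshold turned in direction. Among the alternative values of members, 263 kept their call, moved by less than the spread between libraries or, for the KLS- ratios, kept their sign. A further 11 moved by more, 1 lost and 1 gained a call. Many of the 263 could not move, because a change of filter or eBayes trend, or leaving out a library outside the groups compared, leaves a difference between disease states as it was. The count is therefore no measure of stability. The differences of Ifi205 (-5.59) and Mnda (-3.04) between CML stem and normal HSC libraries were larger with a pseudocount of 0.1 RPKM than with 1 RPKM, as values of 0 depend on it. The number of all genes past the threshold was 294 for CML stem against normal HSC, and 193 without a filter on low values, 543 with LT or ST as a covariate and 776 over all 8 libraries. For LT cells it was 217, and 0 by limma without a filter, with 1765 genes at an unadjusted p under 0.05. For LT against ST it was 612, and 283 without a filter and 392 with 6 population means. Leaving out each library in turn gave 115 to 217, 6 to 225 and 110 to 718 genes for these comparisons, and 3178 to 6338 against 6123 for stem against KLS- cells. By Spearman correlation 4 of the 12 most alike genes were found again. The causes were not tested. No paired analysis was possible because the normal libraries carry no replicate numbers.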
